A study of Mus musculus with 7 samples.

Results

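The annexins are proteins that bind membranes when calcium is present. Their messages were measured here in mouse colon tumour cells of knockout (KO) or wild-type (WT) genotype for Mex3a, the gene of an RNA-binding protein. Of 10 listed annexin genes (Anxa1, Anxa2, Anxa3, Anxa4, Anxa5, Anxa6, Anxa7, Anxa9, Anxa11 and Anxa13), 9 had at least 1 probe set that the platform annotation pairs with that gene symbol alone, and together they had 13 probe sets of the 45037 on the array that are not controls. The array reads 17097 genes in that way in all. A probe set is a group of short array probes that reads 1 transcript or several. Anxa3 had none, so it is named only. Anxa6 had 3 probe sets, Anxa4 and Anxa7 had 2 each and the other 6 genes had 1 each.

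The arrays came from 3 KO and 4 WT samples. Both groups carried Villin CreERT2, a Cre recombinase that tamoxifen switches on and that the Villin promoter restricts to gut epithelium, together with APC fl/+, a floxed copy of the tumour suppressor Apc beside a normal one. Mex3a was tom/flox or Tom/+ according to the series' design text, where the Tomato allele reports activity of the Mex3a promoter. The labels give each array only as KO or WT, and tom/flox is read here as the KO genotype. Both genotypes thus carried a Tomato allele. All animals received 4 doses of tamoxifen and then 2% dextran sulfate sodium (DSS), which injures the colon, in the drinking water for 5 days. Colonic adenomas were taken 2 months after DSS was withdrawn, and cells positive for the epithelial protein Epcam and for Tomato were sorted. RNA from 2000 cells was amplified over 24 cycles. The sources used here give neither strain nor age. Whether every array had its own animal is not stated by the labels. The p-values therefore reflect only how far these samples spread, some of which may be technical.

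Each annexin is built from a conserved core that docks onto negatively charged lipids such as phosphatidylserine in the presence of calcium, and from a variable N-terminal tail that binds partner proteins. In gut epithelium annexins are known for resealing torn membranes, for organising the cortex under the membrane, for vesicle traffic and, in the case of Anxa1, for signals that limit inflammation and help wounds close.

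Mex3a itself was lower in every KO array than in every WT array. Its brighter probe set read 6.18, 6.29 and 6.07 in KO arrays, against 7.41, 7.38, 7.50 and 7.01 in WT arrays, all on the log2 scale. Its log2 difference was -1.13 (SE 0.13), with a limma adjusted p of 0.334 over all 45037 probe sets, and that of its other probe set was -0.60 (SE 0.15; limma, adjusted p = 0.483). The position of its probes against the deleted stretch of Mex3a was not analysed here. The medians of the arrays lay between 5.96 and 6.00, and any pair of arrays had a correlation across probe sets of 0.990 to 0.996. Epcam read 11.87 to 11.99 over all arrays. KO replicate 3 and WT replicate 2 carried Y-linked signal (Eif2s3y at 9.02 and 8.92, against 4.17 to 4.29 in the other arrays). The number of arrays limits the precision.

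No annexin probe set passed the test for genotype. limma, with scan batch as a covariate and Benjamini-Hochberg adjustment at 0.05 over all 45037 probe sets, called 0 of the 13, and it called 0% of all probe sets. At an unadjusted p under 0.05 there was 1 of 13, against 9.39% of all probe sets. Of the 13 differences 8 were positive and 5 negative, with a median of 0.048 on the log2 scale, beside a median of -0.018 over all probe sets. Among all probe sets 18885 differences were positive and 26152 negative. The adjusted p-values of the 13 lay between 0.524 and 0.999. The 95% confidence interval of the log2 difference stayed within a 1.5-fold change in either direction for 12 of the 13 probe sets, all but that of Anxa1, and for 93.3% of all probe sets. It stayed within a 2-fold change for all 13 and for 99.2% of all probe sets. These intervals are per probe set and are not widened for the number of probe sets.

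**Figure D1:**
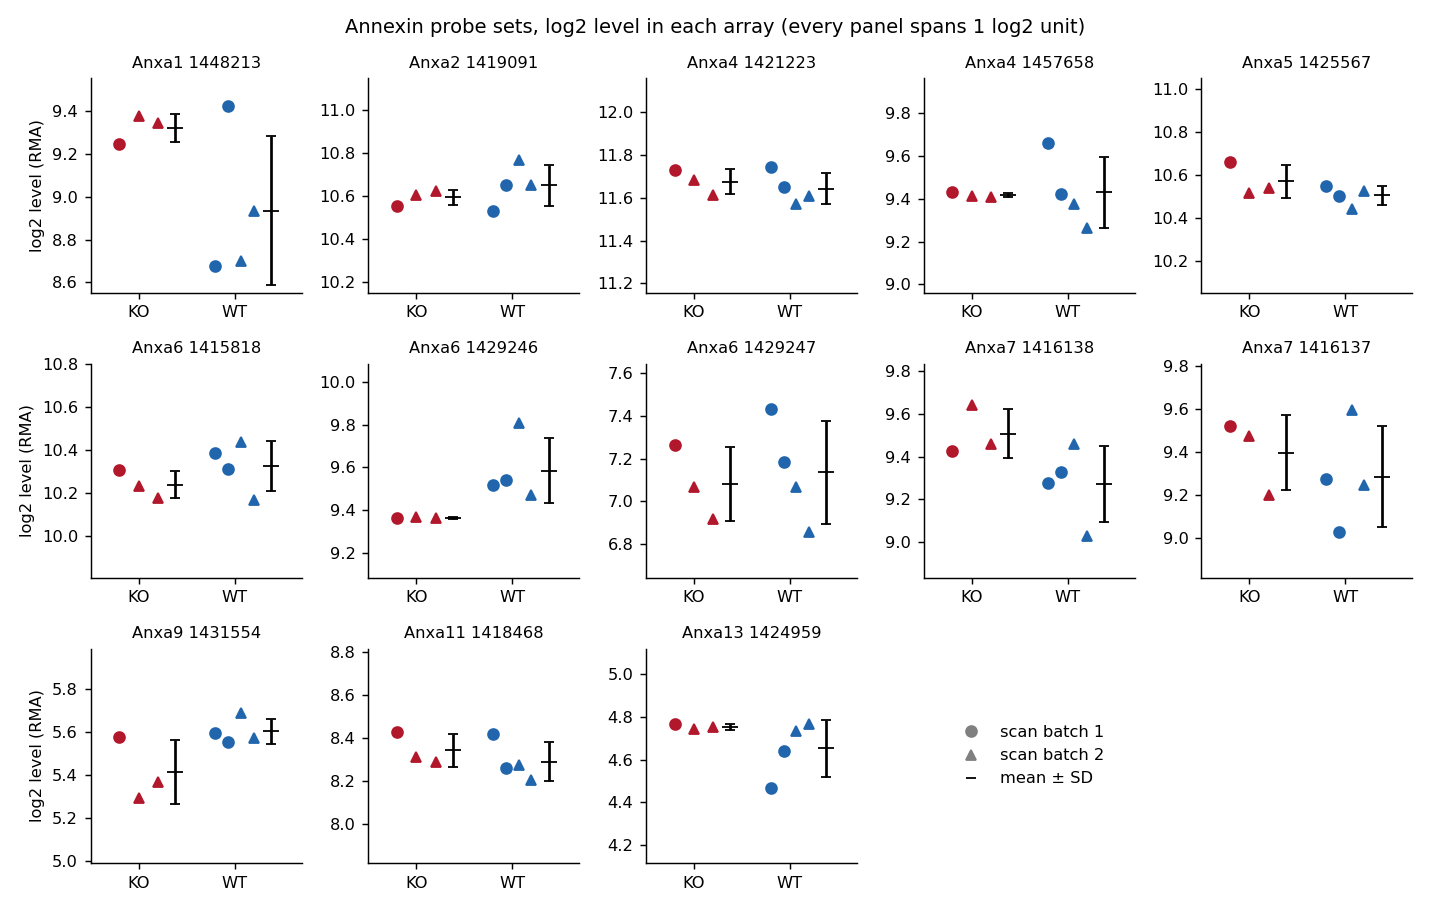
Log2 level (RMA) of the 13 annexin probe sets in each of the 7 arrays, KO left and WT right, with circles for scan batch 1, triangles for scan batch 2 and black bars for the mean ± SD (n = 3 KO, n = 4 WT). Every panel spans 1 log2 unit around its own values; KO and WT arrays are apart in 1 panel, Anxa6 1429246, and Anxa1 has the widest WT spread.

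Anxa1, whose tail peptide acts on formyl peptide receptors and is known for damping inflammation, had the largest difference of the family. It read 9.25, 9.37 and 9.34 in KO arrays, against 8.68, 9.43, 8.70 and 8.93 in WT arrays. The KO arrays lay close together, and 3 WT arrays lay below all of them while WT replicate 2 lay above all of them. KO arrays averaged 9.32 ± 0.066 (SD, n = 3), against 8.93 ± 0.35 (SD, n = 4) for WT arrays. On the log2 scale the difference was 0.40 (SE 0.18, 95% interval -0.011 to 0.82), a 1.32-fold higher level in KO with a limma adjusted p of 0.537, so it did not pass the test.

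The size of the Anxa1 difference depended on single arrays and on a covariate. It was 0.55 without WT replicate 2 (limma, adjusted p = 0.171) and 0.30 without WT replicate 1 (limma, adjusted p = 0.577), and it was positive in all 21 alternatives, from 0.12 to 0.57. The highest value came with array weights (limma, adjusted p = 0.0705), a setting under which 1429246_PM_a_at of Anxa6 (limma, adjusted p = 0.0723) and Anxa9 (limma, adjusted p = 0.0599) also came closer to the threshold without passing it. This was not particular to annexins, since the Mex3a probe sets came to 0.0521 and 0.0605 (limma, adjusted p). The setting gave KO replicate 1 a weight of 0.32 and KO replicate 2 one of 2.91. Within scan batch 2, with 2 arrays per genotype, the Anxa1 difference was 0.54. Within scan batch 1, with 1 KO and 2 WT arrays and the lone KO array assumed to vary like the WT arrays, it was 0.19. The 3' minus 5' log2 difference of the Gapdh control probe sets, a measure of RNA quality, moved with Anxa1. It was -0.154, -0.213 and -0.239 in KO arrays, against -0.131, -0.209, -0.121 and -0.121 in WT arrays. The 4 arrays lowest in it, the KO arrays and WT replicate 2, were the 4 highest in Anxa1. With the Gapdh measure as a further covariate the Anxa1 difference was 0.12 (SE 0.15; limma, adjusted p = 0.917). The same measure from the actin control probe sets did not order the arrays in this way. It was -0.301, -0.515 and -0.446 in KO arrays, against -0.485, -0.429, -0.497 and -0.448 in WT arrays. The actin measure was not used as a covariate, and the part of RNA quality was not tested further.

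**Figure D2:**
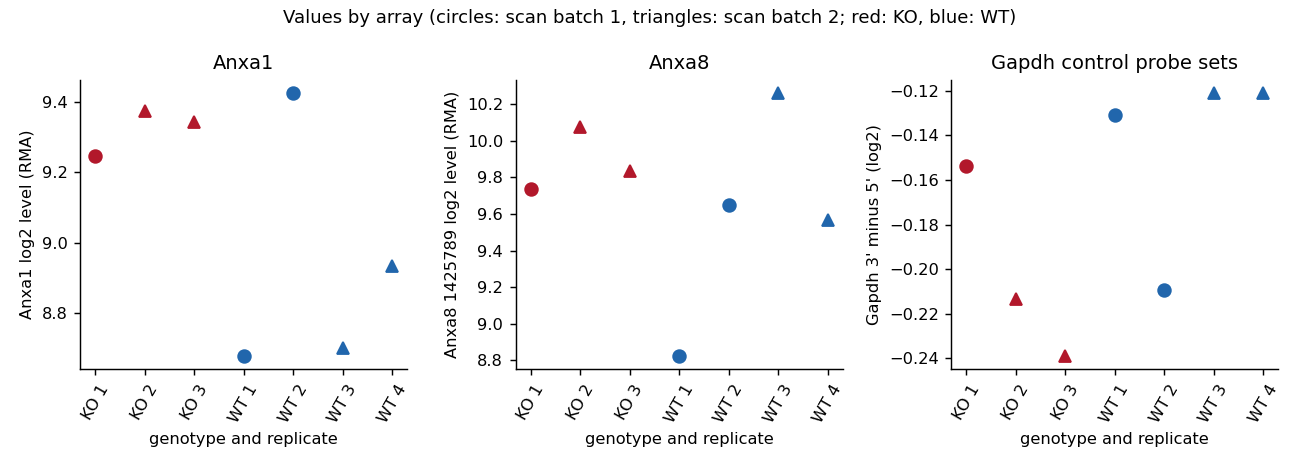
Log2 level of Anxa1 (left), log2 level of Anxa8 probe set 1425789 (middle) and the 3' minus 5' log2 difference of the Gapdh control probe sets (right) in each array, named by genotype and replicate, with circles for scan batch 1, triangles for scan batch 2, red for KO and blue for WT. WT replicate 2 lies with the KO arrays in Anxa1 (9.43) and in the Gapdh measure (-0.209), and WT replicate 1 is lowest in Anxa8 (8.82).

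Leukocytes carry much Anxa1, so their markers are given beside it, although the cells were sorted as Epcam and Tomato positive. The mean log2 level of 18 leukocyte genes was 6.05 to 6.23 in KO arrays and 6.05 to 6.17 in WT arrays. Of the 18 genes 8 had a positive and 10 a negative difference, and 4, the pan-leukocyte gene Ptprc among them, lay in the lowest 25% of probe sets. Lyz2, a lysozyme of macrophages and neutrophils, stood apart from the other 17. Its probe set was 1439426_PM_x_at, where the _x_ marks probes that may also match other transcripts. Lyz2 followed Anxa1 only in part, since WT replicate 3 was low in Anxa1 (8.70) but near the highest WT array in Lyz2. It read 12.39, 12.53 and 12.42 in KO arrays, against 11.63, 12.30, 12.26 and 11.95 in WT arrays, while the highest value of the other 17 on any array was 7.66. Its KO arrays lay above all its WT arrays, as for 2.16% of all probe sets, with a log2 difference of 0.39 (SE 0.15; limma, unadjusted p = 0.0316, adjusted p = 0.512). Lyz2 was the only 1 of the 18 under an unadjusted p of 0.05, against 9.39% of all probe sets. The part of leukocytes in the Anxa1 values was not tested. In sorted bulk samples, fewer cells of a type and less RNA per cell cannot be told apart.

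Anxa2, which pairs with S100a10 under the plasma membrane and gathers plasminogen and its activator at the cell surface, was among the steadiest. It read 10.56, 10.60 and 10.62 in KO arrays, against 10.53, 10.65, 10.77 and 10.65 in WT arrays. The KO arrays lay inside the WT range. KO minus WT, the log2 difference was -0.072 (SE 0.063, 95% interval -0.22 to 0.074), and its ends correspond to a 1.16-fold lower and a 1.05-fold higher level in KO (limma, adjusted p = 0.720).

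Anxa5, the phosphatidylserine binder widely used as a stain for dying cells, read 10.66, 10.52 and 10.54 in KO arrays, against 10.55, 10.50, 10.44 and 10.52 in WT arrays. KO replicate 1 stood highest, and the other KO arrays lay within the WT range. For Anxa5 the log2 difference was 0.079 (SE 0.059, 95% interval -0.058 to 0.22; limma, adjusted p = 0.675).

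Anxa4, an annexin of epithelial cells that orders lipids and affects chloride conductance at the apical membrane, was read by 2 probe sets. 1421223_PM_a_at read 11.73, 11.68 and 11.61 in KO arrays, against 11.74, 11.65, 11.57 and 11.61 in WT arrays, a log2 difference of 0.048 (SE 0.047; limma, adjusted p = 0.750). 1457658_PM_x_at read 9.43, 9.41 and 9.41 in KO arrays, against 9.66, 9.42, 9.37 and 9.27 in WT arrays. Its KO arrays sat together inside a WT range set by replicates 1 and 4. Its log2 difference of 0.010 (SE 0.090; limma, adjusted p = 0.978) changed sign without KO replicate 2, KO replicate 3, WT replicate 2 or WT replicate 4, with values from -0.037 to 0.091 over the arrays left out in turn. The _x_ in its name marks probes that may also match other transcripts. Over the 7 arrays the pair had a Pearson r of 0.72, given as a description, since all values of an array share its RNA and its normalization.

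Anxa6, which carries a duplicated annexin core and is known for endocytic and cholesterol traffic, gave the only probe set of the family whose groups did not overlap. 1429246_PM_a_at read 9.36, 9.37 and 9.36 in KO arrays, against 9.52, 9.54, 9.81 and 9.47 in WT arrays. All 3 KO arrays lay below all 4 WT arrays, which holds for 1 of 13 annexin probe sets (7.69%) and for 2.8% of all probe sets, while all KO arrays above all WT arrays was found in 0 of 13 and in 2.16% of all. Its log2 difference was -0.23 (SE 0.095, 95% interval -0.45 to -0.010) with a limma adjusted p of 0.524, so the call failed. Without WT replicate 3, the highest array, the difference was -0.13 (limma, adjusted p = 0.797), and over the alternatives that could be run it was between -0.34 and -0.13.

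The other Anxa6 probe sets did not share that separation. 1415818_PM_at read 10.30, 10.23 and 10.18 in KO arrays, against 10.39, 10.31, 10.44 and 10.17 in WT arrays, a log2 difference of -0.077 (SE 0.080; limma, adjusted p = 0.767), which was -0.0038 without WT replicate 3. 1429247_PM_at read 7.26, 7.07 and 6.92 in KO arrays, against 7.43, 7.19, 7.07 and 6.86 in WT arrays. Its groups overlapped throughout, with a log2 difference of -0.00055 (SE 0.10; limma, adjusted p = 0.999) that took either sign as arrays were left out: it was 0.030 without KO replicate 1, 0.030 without KO replicate 3, 0.046 without WT replicate 1 and 0.045 without WT replicate 3. Over the 7 arrays 1429246_PM_a_at had a Pearson r of 0.75 with 1415818_PM_at and of 0.078 with 1429247_PM_at.

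Fibroblasts are rich in Anxa6 and Anxa2, and the sort for Epcam and Tomato should remove them. The mean log2 level of 11 fibroblast genes was 6.28, 6.98 and 6.39 in KO arrays, against 6.34, 6.41, 6.86 and 6.28 in WT arrays, so that KO replicate 2 and WT replicate 3 stood highest. Collagen Col3a1 showed the same arrays, at 5.84, 8.37 and 6.31 in KO, against 5.56, 6.21, 8.26 and 5.48 in WT. It varied most of the 11 genes. Col1a1, Col6a1, Dcn and Sparc were highest in these arrays too, but other genes of the list were not. Fn1 was highest in WT replicate 1 (10.77), Lum in WT replicate 4 (4.52) and Pdgfra in WT replicate 2 (4.70), the last of these with Lum at a dim level. WT replicate 3 was also the highest array for Anxa2 and for 1415818_PM_at and 1429246_PM_a_at of Anxa6, whereas KO replicate 2 lay within the range of the WT arrays for Anxa2 and 1415818_PM_at and below it for 1429246_PM_a_at. The part of fibroblasts in these values was not tested.

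Anxa7, also called synexin, promotes contact and fusion of secretory vesicles. 1416138_PM_at read 9.43, 9.64 and 9.46 in KO arrays, against 9.27, 9.33, 9.46 and 9.03 in WT arrays. WT replicate 3 reached the lower KO arrays and WT replicate 4 stood lowest. For this probe set the log2 difference was 0.23 (SE 0.12, 95% interval -0.039 to 0.50) with a limma adjusted p of 0.573, and it was 0.11 without WT replicate 4 (limma, adjusted p = 0.812).

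The other Anxa7 probe set, 1416137_PM_at, read 9.52, 9.47 and 9.20 in KO arrays, against 9.27, 9.03, 9.60 and 9.24 in WT arrays. Here WT replicate 3 stood highest of all. Its log2 difference, KO minus WT, was 0.096 (SE 0.14; limma, adjusted p = 0.841), and it turned to -0.085 without KO replicate 1, the lone KO array of scan batch 1. It was 0.37 within scan batch 1, 0.31 with the Gapdh measure as a covariate and 0.23 without WT replicate 3. The 2 probe sets had a Pearson r of 0.47 over the 7 arrays.

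Anxa11, a long-tailed annexin that binds the calcium sensor Pdcd6 and S100a6, read 8.43, 8.31 and 8.29 in KO arrays, against 8.42, 8.26, 8.28 and 8.20 in WT arrays. The highest array of each genotype came from scan batch 1. KO minus WT, Anxa11 had a log2 difference of 0.071 (SE 0.082, 95% interval -0.12 to 0.26; limma, adjusted p = 0.788).

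Anxa9, which lacks the usual calcium-binding sites of the family, read 5.58, 5.29 and 5.37 in KO arrays, against 5.60, 5.56, 5.69 and 5.57 in WT arrays. KO replicates 2 and 3 lay below all WT arrays and KO replicate 1 among them. KO minus WT, Anxa9 had a log2 difference of -0.18 (SE 0.080, 95% interval -0.37 to 0.0063) with a limma adjusted p of 0.539. Within scan batch 2 it was -0.30 (limma, adjusted p = 0.159), within scan batch 1 it was 0.0023, and with the Gapdh measure as a covariate it was -0.086.

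Anxa13, an annexin known mainly from intestinal epithelium, read 4.77, 4.74 and 4.75 in KO arrays, against 4.47, 4.64, 4.73 and 4.77 in WT arrays. Its mean of 4.70 over all arrays lay under 4.87, the level below which the lowest 25% of probe sets fall, and it was the only 1 of the 13 there. KO minus WT, Anxa13 had a log2 difference of 0.083 (SE 0.063; limma, adjusted p = 0.680), and it was -0.0041 without KO replicate 1. No detection calls were used here.

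**Figure D3:**
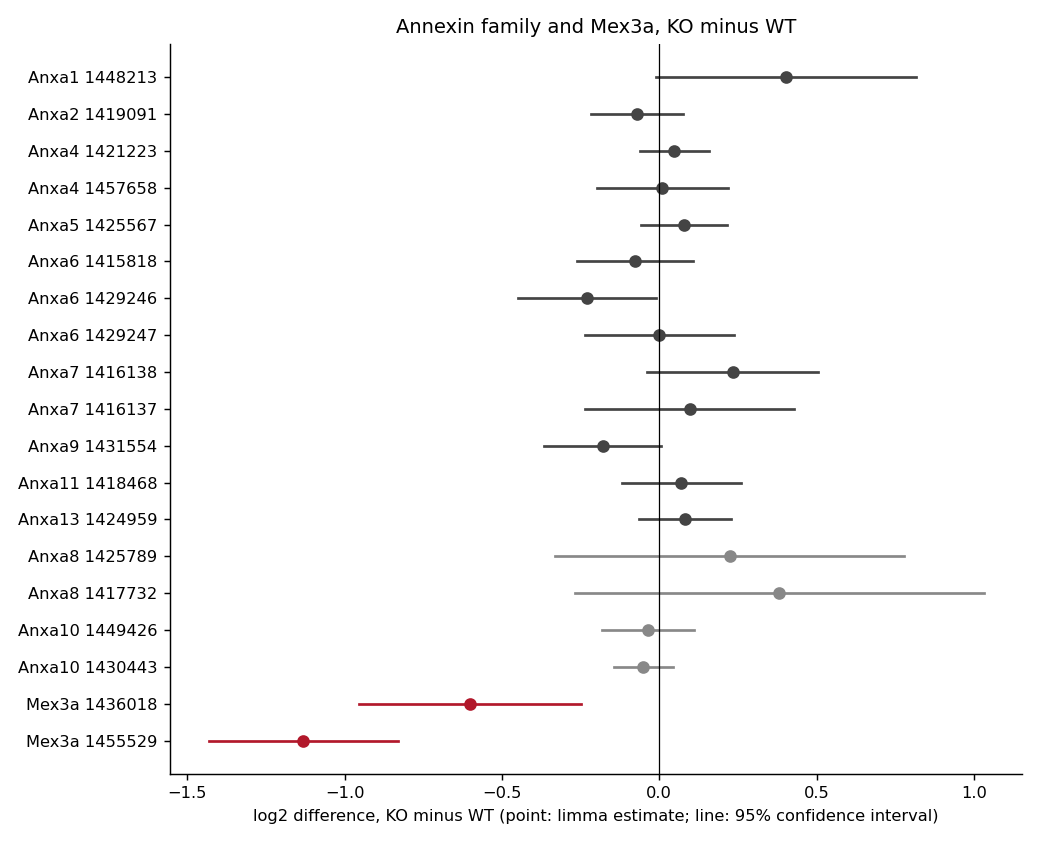
Log2 difference, KO minus WT, of the 13 annexin probe sets (dark), the 4 probe sets of Anxa8 and Anxa10 (grey) and both Mex3a probe sets (red), with points for the limma estimate and lines for the 95% confidence interval. All annexin intervals except that of Anxa6 1429246 cross 0, and both Mex3a intervals lie below 0.

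Mouse annexin genes outside the 10 were also on the array. Anxa8, an annexin of stratified and injured epithelia, varied more between arrays than any probe set of the 9 genes. Its probe set 1425789_PM_s_at read 9.74, 10.08 and 9.83 in KO arrays, against 8.82, 9.65, 10.26 and 9.57 in WT arrays. The WT arrays held both the lowest and the highest value, and the SD over all arrays was 0.46, against 0.32 for Anxa1. The log2 difference was 0.22 (SE 0.24; limma, adjusted p = 0.773), and it was 0.041 without KO replicate 1, 0.056 without WT replicate 1, 0.096 without WT replicate 4 and 0.44 without WT replicate 3. The other probe set, 1417732_PM_at, had a difference of 0.38 (SE 0.28; limma, adjusted p = 0.672) and ranked the 7 arrays in the same order (Pearson r 0.98). The array lowest in Anxa8, WT replicate 1, was also lowest in the mean of 10 goblet cell genes, which was 8.07, 8.49 and 8.59 in KO arrays, against 7.49, 8.39, 8.41 and 8.00 in WT arrays. WT replicate 1 was lowest as well in the mean of colonocyte genes (6.31) and of leukocyte genes (6.048). The means of epithelial, fibroblast, endothelial and stem cell genes were lowest in other arrays. Anxa8 was highest in WT replicate 3, and the goblet cell mean in KO replicate 3. The part of goblet cells or other cell types in the Anxa8 values was not tested. Anxa10, known from stomach epithelium, had log2 differences of -0.035 (SE 0.064) and -0.051 (SE 0.040) on its 2 probe sets, and the first was 0.011 without KO replicate 3 and 0.0083 without WT replicate 4.

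Arrays of 1 genotype also differed among themselves. The SD of the WT arrays exceeded that of the KO arrays for 11 of 13 annexin probe sets, as it did for 63.7% of all probe sets. For 5 of the 13 (38.5%) the log2 difference between genotypes was larger in size than the SD among the WT arrays, as for 33.1% of all probe sets. WT replicate 3 was the highest array for 5 of 13 probe sets and the lowest for 2, and WT replicate 4 was the lowest for 5 and the highest for 0. Anxa2 and 1421223_PM_a_at of Anxa4 ran opposite to each other, with small SDs over all arrays of 0.077 and 0.065. WT replicate 3 was highest in Anxa2 and lowest in 1421223_PM_a_at. Their Pearson r was -0.90 over the 7 arrays, the most negative of the 55 pairs among the brightest probe sets of the 11 annexin genes. The other Anxa4 probe set, 1457658_PM_x_at, was lowest in WT replicate 4 (9.27).

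Scan batch, a label that both genotypes share, moved no annexin past the test either. limma called 0 of 13 annexin probe sets between batch 2 and batch 1, and 0% of all. At an unadjusted p under 0.05 there was 1 of 13, against 12.2% of all probe sets. That probe set was 1429247_PM_at of Anxa6, with a log2 difference of -0.32 (SE 0.10; limma, adjusted p = 0.330) for batch 2 minus batch 1, the largest in size among the 13.

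**Figure D4:**
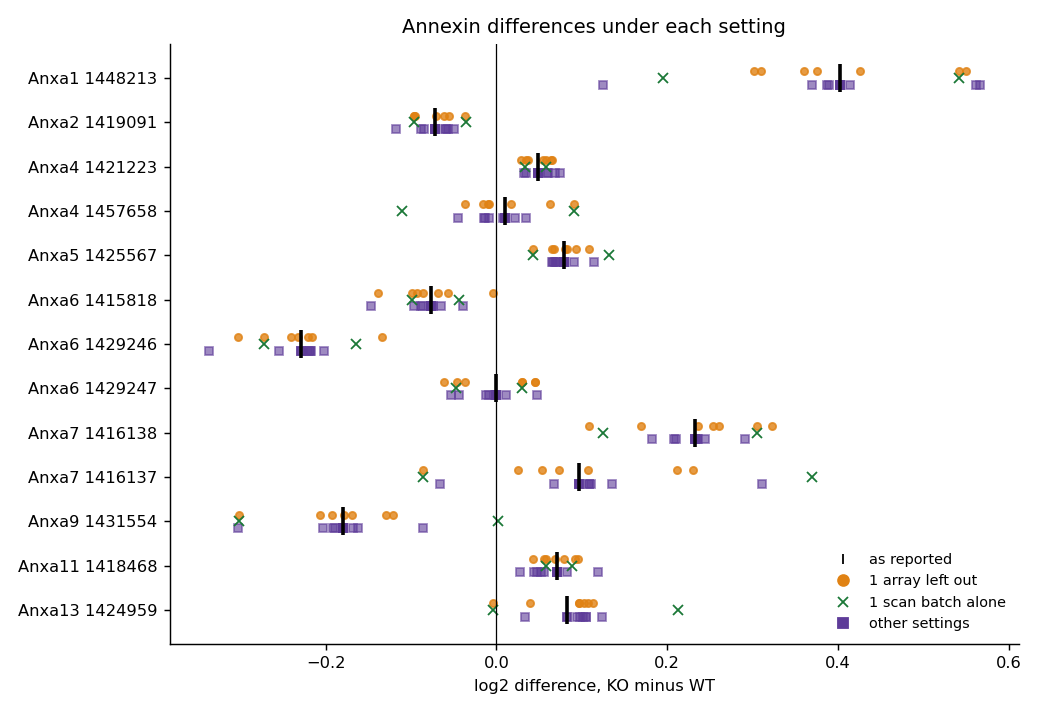
Log2 difference, KO minus WT, of each annexin probe set as reported (black line), with 1 array left out (orange circles), within 1 scan batch (green crosses) and under the other settings (purple squares). Anxa1 and the first Anxa7 probe set stay above 0 and Anxa6 1429246 stays below 0 at every setting shown, while Anxa4 1457658 and Anxa6 1429247 scatter around 0.

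Transcripts of proteins that bind annexins directly did not pass the test either. Of 9 listed partners 8 had a probe set and 0 passed the test, with differences from -0.097 to 0.32 and a median of 0.067. At an unadjusted p under 0.05 (limma) there was 0 of 8 too, against 9.39% of all probe sets. S100a10, the partner of Anxa2, read 10.59, 10.51 and 10.41 in KO arrays, against 10.35, 10.44, 10.46 and 10.45 in WT arrays. WT replicate 1 stood apart below the other WT arrays, and the log2 difference of S100a10 was 0.082 (SE 0.069; limma, adjusted p = 0.708). It was 0.0062 without KO replicate 1 and 0.196 within scan batch 1. S100a11, a partner of Anxa1, differed by -0.097 (SE 0.085), S100a6, a partner of Anxa2 and Anxa11, by 0.056 (SE 0.059), and S100a4, another S100 protein that binds Anxa2, by 0.078 (SE 0.082).

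The other partners were Pdcd6, the calcium sensor that binds Anxa7 and Anxa11, with a log2 difference of 0.090 (SE 0.066), Sri (sorcin), which binds Anxa7, with -0.053 (SE 0.042), and Fpr2, a receptor for Anxa1, with -0.089 (SE 0.056). Ahnak, a giant scaffold that joins Anxa2 and S100a10 at the membrane, read 9.87, 10.84 and 10.69 in KO arrays, against 9.59, 10.38, 10.20 and 10.10 in WT arrays. KO replicates 2 and 3 lay above all WT arrays and KO replicate 1 below all but 1 of them. The log2 difference of Ahnak was 0.32 (SE 0.21; limma, adjusted p = 0.642); it was 0.62 within scan batch 2 and -0.12 within scan batch 1.

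Genes of annexin-linked processes were counted next, and 0 of the 52 measured genes of all lists, Anxa8 and Anxa10 included, passed the test in either direction. At an unadjusted p under 0.05 limma gave 4 higher and 1 lower, against 5.58% and 3.81% of all probe sets, and the genotypes were fully apart for 3 higher and 2 lower, against 2.16% and 2.8%. The median difference over the 52 was 0.0056.

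Phosphatidylserine is the lipid that annexins dock on, and flippases keep it on the inner leaflet. Of 11 measured genes for its exposure and return, 3 had an unadjusted p under 0.05 (limma), all higher in KO. Over all probe sets 5.58% were higher at that threshold and 9.39% differed in either direction. After adjustment 0 of the 11 passed. Atp11b, a flippase, read 9.55, 9.81 and 9.70 in KO arrays, against 9.34, 9.58, 8.88 and 8.99 in WT arrays, with a log2 difference of 0.53 (SE 0.16; limma, adjusted p = 0.493). WT replicate 2 lay just above KO replicate 1. Atp8b1, a flippase of apical membranes, differed by 0.34 (SE 0.11; limma, adjusted p = 0.498), and Tmem30b, a subunit that flippases need to leave the endoplasmic reticulum, by 0.25 (SE 0.091; limma, adjusted p = 0.511) with all KO arrays above all WT arrays. That separation held for 1 of the 11, against 2.16% of all probe sets.

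Xkr8, a scramblase that exposes phosphatidylserine in dying cells, had all KO arrays below all WT arrays, at 5.52, 5.51 and 5.55 in KO, against 5.62, 5.60, 5.63 and 6.16 in WT. That held for 1 of the 11 genes, against 2.8% of all probe sets. The Xkr8 difference of -0.26 (SE 0.13; limma, adjusted p = 0.572) was -0.094 without WT replicate 4, which stood far above the rest. The median difference of the 11 genes was -0.00077. The difference for Atp11b was 0.82 within scan batch 2, 0.082 within scan batch 1 and 0.26 with the Gapdh measure as a covariate.

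**Figure D5:**
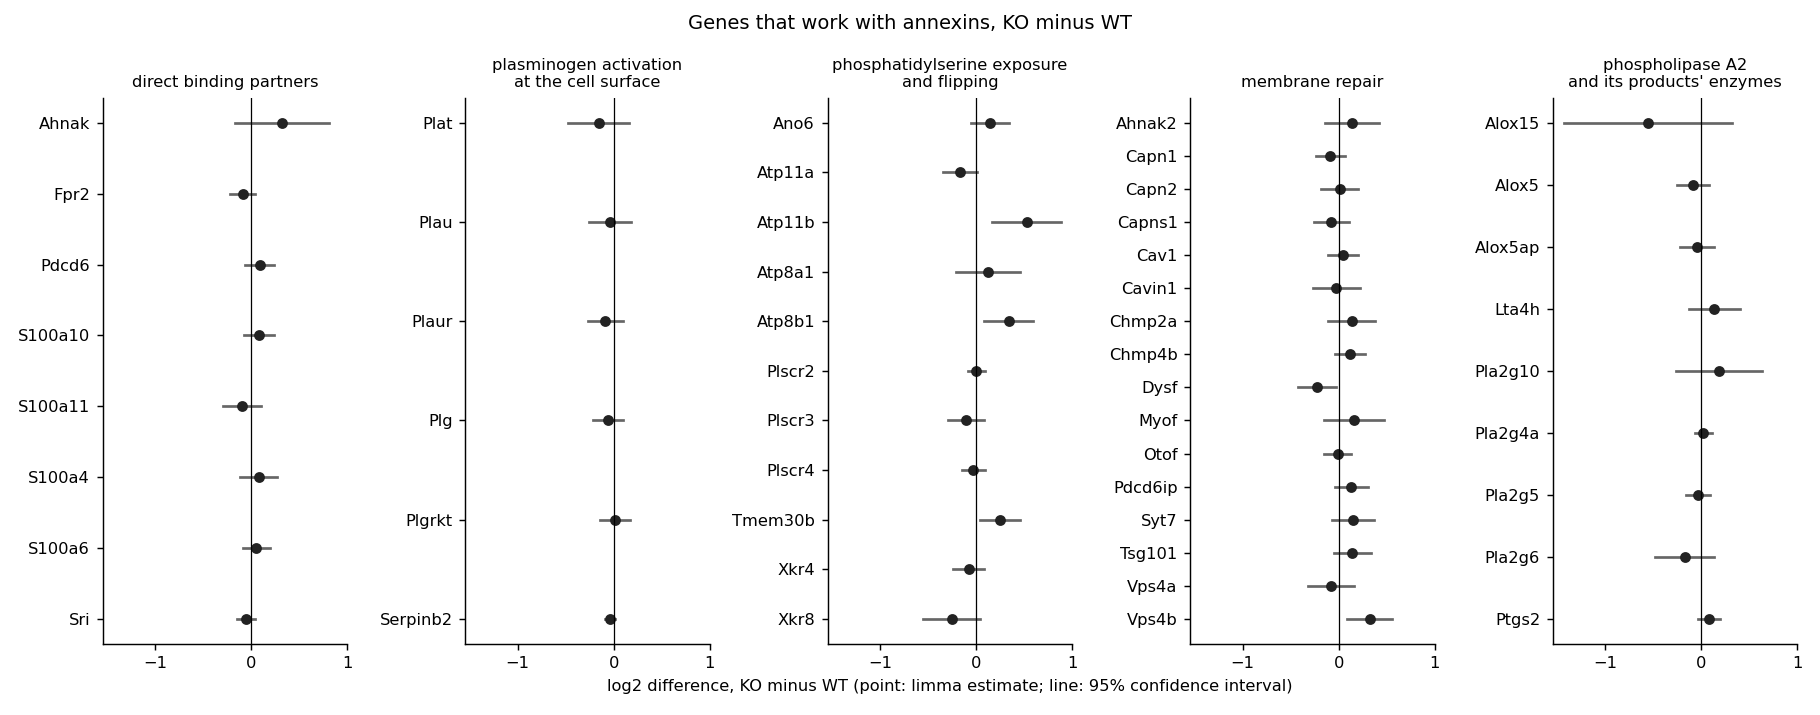
Log2 difference, KO minus WT, of 50 genes in 5 lists of annexin partners and annexin-linked processes, with points for the limma estimate and lines for the 95% confidence interval. Atp11b, Atp8b1, Tmem30b and Vps4b have intervals above 0 and Dysf has one below 0, without adjustment for the number of genes.

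Among 16 measured membrane repair genes 10 differences were positive and 6 negative, with a median of 0.082. Vps4b, an ATPase that disassembles ESCRT, a machinery that reseals membranes, read 10.05, 10.13 and 10.04 in KO arrays, against 9.69, 10.01, 9.60 and 9.77 in WT arrays. Its groups did not overlap, although WT replicate 2 came close, and its log2 difference was 0.32 (SE 0.10; limma, adjusted p = 0.494). Tsg101, of the same machinery, differed by 0.14 (SE 0.082; limma, adjusted p = 0.606) and was named because its groups also did not overlap. All KO arrays lay above all WT arrays for 2 of the 16, against 2.16% of all probe sets. At an unadjusted p under 0.05 limma gave 1 higher and 1 lower of the 16, against 5.58% and 3.81% of all probe sets. Dysf (dysferlin), which brings vesicles to wounds of the muscle membrane, read 5.99, 6.16 and 5.99 in KO arrays, against 6.21, 6.07, 6.43 and 6.29 in WT arrays. Its log2 difference was -0.23 (SE 0.085; limma, adjusted p = 0.511).

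Plasminogen activation genes had 1 positive and 5 negative differences among 6 measured, with a median of -0.050. Over all probe sets 18885 differences were positive and 26152 negative, with a median of -0.018. Plat, the plasminogen activator that Anxa2 binds, differed by -0.15 (SE 0.14; limma, adjusted p = 0.725), by -0.013 without KO replicate 1 and by -0.39 with the Gapdh measure as a covariate. Serpinb2, an inhibitor of plasminogen activation, differed by -0.037 (SE 0.024; limma, adjusted p = 0.643) with each KO array below each WT array at a dim level of 3.82 to 3.90. That separation held for 1 of the 6, against 2.8% of all probe sets. Of 9 measured genes for phospholipase A2 and the enzymes that use its product, 4 differences were positive and 5 negative. Alox15, a lipoxygenase, read 7.87, 7.60 and 7.15 in KO arrays, against 9.33, 7.51, 7.79 and 8.08 in WT arrays, where replicate 1 stood highest (difference -0.55, SE 0.38; limma, adjusted p = 0.652). The difference of Alox15 was -0.25 without WT replicate 1, -0.86 without WT replicate 2 and -0.082 with the Gapdh measure as a covariate. Ptgs2, the inducible cyclooxygenase, differed by 0.080 (SE 0.049; limma, adjusted p = 0.624), with KO replicate 1, at 4.82, above the other arrays. Without that array the difference of Ptgs2 was 0.0034.

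Likeness of pattern over the 7 arrays was described for Anxa1, Anxa7 and Anxa9, the 3 of the 9 genes whose brightest probe set had the largest SD. The genes most like them were found among 12814 genes outside the family above the lowest 25% by level. For Anxa1 they were Selenot (Pearson r 0.99), Jade2 (0.99) and Dnajc5 (0.98), and 167 genes had an r over 0.9. For Anxa7, by 1416138_PM_at (Pearson r 0.47 with its other probe set), they were Galnt7 (0.98), Ctdp1 (0.97) and 1700029I15Rik (0.97), with 40 genes over 0.9. For Anxa9 they were Snx33 (0.98), Ndufa11 (0.98) and 1700088E04Rik (0.97), with 74 genes over 0.9. These are the highest of many values over 7 arrays that share their normalization, and they are given as a description.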

How the data were processed

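The authors deposited 1 log2 value for each probe set and array, summarised with RMA (robust multi-array averaging), per the submitters' processing notes. The RMA version, filters and corrections for batch were not stated in the sources used here, and scanner files were not used. Of 45141 probe sets 104 controls were left out, and 28898 of the rest had 1 gene symbol. Symbols of all 13 annexin probe sets matched RefSeq gene numbers (GRCm38.p6 annotation).

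KO was compared with WT in limma 3.58.1 (R 4.3.3), with lmFit, eBayes with a trend, scan batch as a fixed covariate, 4 residual degrees of freedom and two-sided p-values, adjusted after Benjamini-Hochberg over 45037 probe sets (threshold 0.05), with no filter on level. Batch 1 held 1 KO and 2 WT arrays, batch 2 held 2 of each. Group means and SDs come from the values, differences from the fit. A gene in a list stands for its probe set of highest mean. Tested on simulated data of 45037 probe sets with 200 changed, the fit recovered 44.6% of changes of 0.5 log2 units, 85.1% of 1 and 98.3% of 2, and 4.35% of its calls were false. The simulated noise was drawn independently for each probe set and array. Adjusted p-values also depend on how many probe sets change and by how much, which the simulation fixed. In the real arrays the brighter Mex3a probe set, at -1.13, was not called (limma, adjusted p = 0.334). The recovered shares therefore need not hold for the real arrays.

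Named genes are all annexins, Mex3a, the direct partners and, in each other list, the 2 of smallest p. Genes most like a member were sought for the 3 of the 9 annexin genes whose brightest probe set had the largest SD. Tmem30b, Xkr8, Tsg101, the marker genes Epcam, Ptprc, Lyz2 and Eif2s3y and the fibroblast genes named were chosen after their values were seen. The members and lists were chosen with earlier results of these data known. Protein and probe sequences were not used here.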

Additional observations from a re-analysis of the deposited data

Results flagged for a closer look

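In the partner genes, 2 values stood far from the other WT arrays by Dixon's test of gap over range at its 95% critical value, out of 38 probe sets examined in the 4 WT arrays, where chance flags about 1 in 20. S100a10 was 10.35 in WT replicate 1, against 10.44 to 10.46 in the other WT arrays. Xkr8 was 6.16 in WT replicate 4, against 5.60 to 5.63 in the other WT arrays. The KO groups of 3 arrays were not examined this way.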

How the results depend on the processing

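The calls hardly depended on the processing: the number of annexin probe sets, of partner genes and of annexin probe sets by scan batch past the threshold was 0 in every alternative run, and the number of all probe sets was 0 to 1 with 1 array left out (1 without WT replicate 4). Of 262 values of annexin differences under 21 alternatives, 240 kept their sign and 22 did not, and 0 passed the threshold. The number of annexin probe sets without overlap, 1 as reported, was 2 with arrays centred on their median, 2 with quantile normalization, 2 on the 5 arrays without Y-linked signal (an alternative added after seeing the data), 7 in scan batch 1 alone (53.8%, against 60.6% of all probe sets) and 7 in scan batch 2 alone (53.8%, against 50.9% of all probe sets), and 1 to 3 with 1 array left out. Differences of the other sign were as follows. Anxa4 1457658_PM_x_at was -0.013 with no term for scan batch, -0.0086 with scan batch as a random block, -0.014 with quantile normalization, -0.11 in scan batch 1, -0.045 without arrays with Y-linked signal and -0.037 to 0.091 with 1 array left out. Anxa6 1429247_PM_at was 0.011 with centred arrays, 0.047 with the Gapdh covariate, 0.030 in scan batch 2 and -0.062 to 0.046 with 1 array left out. Anxa7 1416137_PM_at was -0.066 with array weights, -0.085 in scan batch 2 and -0.085 to 0.23 with 1 array left out. In scan batch 1 Anxa9 was 0.0023, Anxa10 1449426_PM_a_at 0.063, Fpr2 0.021 and Ahnak -0.12. Anxa13 was -0.0041 in scan batch 2 and -0.0041 to 0.11 with 1 array left out. With array weights Anxa8 1425789_PM_s_at was -0.011. With the Gapdh covariate Anxa10 1449426_PM_a_at was 0.045, Ahnak -0.072 and S100a11 0.026. Anxa10 1449426_PM_a_at was -0.10 to 0.011 with 1 array left out. The causes were not tested. No paired analysis was possible because the labels give no replicate numbers shared between genotypes. The fit on simulated data recovered 44.6% of changes of 0.5 log2 units, so changes of that size were often missed in the simulation, and smaller ones were not simulated. Larger changes could also be missed in the real arrays, where the brighter Mex3a probe set, at -1.13, was not called.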
